A study of Mus musculus with 4 samples.

Results

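The collagens of cartilage were followed across single-cell transcriptomes of endosteal marrow cells sorted for the reporter Td in mice of 4 ages. They comprised 8 genes taken by symbol, out of 26600 genes listed in all 4 libraries. Col2a1, Col11a1, Col11a2 and Col27a1 encode chains of fibril-forming collagens, Col9a1, Col9a2 and Col9a3 encode the chains of type IX collagen, which sits on the surface of those fibrils, and Col10a1 encodes type X collagen, a network former. Every one of the 8 genes was listed and detected in every library.

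All mice were male Col2:Td mice (Col2-Cre with a Rosa26 lsl-tdTomato reporter, strain label B6SJL/F1). In these mice Cre under Col2a1 control switches on the red reporter Td, which stays on in chondrocytes and in the mesenchymal cells that descend from cells with Cre activity. Cells were released by digestion from the metaphyses, sorted for Td and run on the 10x Genomics droplet system. Cells of 2 mice aged 1 month, 3 mice aged 1.5 months, 3 mice aged 3 months and 3 mice aged 16 months were pooled into 1 library per age. No age had a replicate library, so age, the pooled animals and the library cannot be told apart, and no p-value is given.

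Hyaline cartilage owes its tensile strength to thin fibrils in which type II collagen is copolymerised with type XI collagen and decorated by type IX collagen. In the growth plate, resting chondrocytes divide, enlarge and become hypertrophic, and hypertrophic chondrocytes are the classic source of type X collagen. Sox9, with Sox5 and Sox6, drives the genes of types II, IX and XI, while Runx2 and Mef2c drive the hypertrophic programme.

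In the mouse build GRCm38 with the GENCODE M21 annotation the 8 genes lie apart on 7 chromosomes. The fibril genes are Col2a1 (chr15:97975602-98004695, minus strand), Col11a1 (chr3:114030540-114220718, plus strand), Col11a2 (chr17:34039437-34066685, plus strand) and Col27a1 (chr4:63214004-63334991, plus strand), whose span holds Mir455. The type IX genes are Col9a1 (chr1:24177610-24252684), Col9a2 (chr4:121039385-121055322) and Col9a3 (chr2:180597790-180622189), all on the plus strand. Col10a1 is a short gene (chr10:34389981-34397085, plus strand). It lies within the span of Nt5dc1 on the other strand, which reached 36.0 CPM in the hypertrophic-like cells described below at 1.5 months and 6.56 CPM in the other CH-like cells of that library. At 1 month these values were 16.4 and 8.43 CPM, on 13 and 48 UMIs, and at 3 months 11.7 and 10.1 CPM. Col9a3 overlaps Tcfl5 on the other strand.

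The table of RefSeq promoters (build GRCm38.p6) held 6 of the 8 genes with 7 starts, and Col2a1 and Col9a3 were not in it. Of these, the 250 bases before the start are shown for the gene that marked hypertrophic cells below and for both genes that were also found in osteoblasts. Capitals mark matches, searched on both strands, to the SOX motif ACAATG, its variant with the letters ACAAAG, the RUNX motif TGTGGT, its variant with the letters TGCGGT, and the TATA box motif TATAAA. The windows are chr10:34389731-34389980 for Col10a1, chr3:114030290-114030539 for Col11a1 and chr17:34038888-34039137 for Col11a2, all on the plus strand, and RefSeq starts can differ from those of GENCODE.
Col10a1: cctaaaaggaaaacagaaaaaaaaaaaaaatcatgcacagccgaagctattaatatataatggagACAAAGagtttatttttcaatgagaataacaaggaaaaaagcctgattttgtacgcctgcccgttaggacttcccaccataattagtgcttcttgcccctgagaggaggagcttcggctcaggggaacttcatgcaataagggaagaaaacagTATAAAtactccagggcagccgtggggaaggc
Col11a1: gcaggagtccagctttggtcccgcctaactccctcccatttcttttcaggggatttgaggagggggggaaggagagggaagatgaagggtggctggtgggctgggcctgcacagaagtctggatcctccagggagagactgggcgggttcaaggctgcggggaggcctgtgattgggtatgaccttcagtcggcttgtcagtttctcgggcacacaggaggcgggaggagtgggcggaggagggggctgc
Col11a2: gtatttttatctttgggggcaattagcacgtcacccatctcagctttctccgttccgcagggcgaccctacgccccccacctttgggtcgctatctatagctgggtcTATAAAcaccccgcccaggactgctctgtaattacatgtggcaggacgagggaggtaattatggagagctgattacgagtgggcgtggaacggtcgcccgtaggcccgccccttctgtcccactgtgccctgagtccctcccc
The Col10a1 window held 1 ACAAAG and 1 TATAAA, the Col11a2 window 1 TATAAA, and these letters were not found in the Col11a1 window. The windows of Col9a1 (both starts), Col9a2 and Col27a1 held none of the 5 motifs. Of all 32851 promoter windows of 250 bases, 10.7% held ACAATG, 16.5% ACAAAG, 14.0% TGTGGT, 5.10% TGCGGT and 12.4% TATAAA. The Col10a1 window had a GC content of 41.6% and 5 CpG, against 62.4% and 7 for Col11a1, 57.6% and 14 for Col11a2, and medians of 52.4% and 6 over all promoters. These matches describe the letters and were not tested for binding.

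The libraries held 8417, 5745, 4516 and 9229 barcodes at 1, 1.5, 3 and 16 months, of which 8308, 5453, 4180 and 6143 passed the filters on genes and mitochondrial UMIs. Clustering without the collagen genes and naming by other markers gave chondrocyte-like (CH-like) cells, osteoblast-like (OB-like), osteocyte-like (Ocy-like), early and late mesenchymal progenitor-like (EMP-like and LMP-like) and adipocyte-lineage-like (AD-like) cells beside blood and vessel cells. CH-like cells numbered 498, 2005, 895 and 117, or 5.99%, 36.8%, 21.4% and 1.90% of kept cells, with a median of 12164, 15406, 8380 and 12944 UMIs. All 9 detected chondrocyte markers, which also named these clusters, were present in them at every age, with summed levels of 18881 to 25200 CPM. At 1, 1.5 and 3 months all 9 were also present in OB-like cells, with summed levels of 145, 1171 and 540 CPM. CH-like cells of the 1 month library also held 13815 CPM of 8 neutrophil markers, against 208, 1625 and 156 CPM at 1.5, 3 and 16 months. OB-like cells held 11234.5, 206, 1408 and 1091 CPM of them, so the high level at 1 month was not particular to CH-like cells. The part of these markers in the levels below was not tested. Between 30 and 61 barcodes were shared by each pair of the 3 younger libraries, and 1 or 2 by each pair with the 16 month library. Levels are in CPM, the summed UMIs of a gene per 1000000 UMIs of the class. Ranges in parentheses are 95% exact intervals (Poisson for levels, conditional binomial for folds), which reflect counting error alone. Since counts come from one end of the transcript, levels of different genes were not compared.

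Type II collagen, the main chain of cartilage fibrils, was at its highest level in CH-like cells in all 4 libraries. Col2a1 reached 31618 CPM (31481 to 31755) at 1 month, 47197 CPM (47118 to 47275) at 1.5 months, 31933 CPM (31806 to 32060) at 3 months and 3730 CPM (3637 to 3825) at 16 months. The level at 1.5 months thus lay above the other ages and that at 16 months far below them, while 1 and 3 months differed little. The remaining mesenchymal cells held 485, 2337, 1013 and 179 CPM. CH-like cells exceeded them 65.2-fold (63.9 to 66.6), 20.2-fold (20.04 to 20.35), 31.5-fold (30.9 to 32.1) and 20.8-fold (20.2 to 21.5).

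Both chains of type XI followed the order of Col2a1 over the ages in CH-like cells, with 1.5 months highest. Col11a1, a chain of type XI collagen, was at 3880, 6104, 5152 and 717 CPM in CH-like cells at 1, 1.5, 3 and 16 months. Col11a2, a second chain of type XI, was at 1551, 3863, 2679 and 779 CPM. Both were lowest at 16 months, and both were also found outside the CH-like cells, at 893, 1177, 953 and 378 CPM for Col11a1 and at 308, 601, 453 and 256 CPM for Col11a2 in the other mesenchymal cells. Their excess in CH-like cells was therefore modest, at 4.35-, 5.19-, 5.41- and 1.90-fold for Col11a1 and 5.04-, 6.43-, 5.92- and 3.05-fold for Col11a2. Col27a1, which forms thin fibrils in cartilage, was at 798, 1572, 1629 and 961 CPM. Unlike the other members it was not lowest at 16 months, and it exceeded the other mesenchymal cells 11.2-, 11.8-, 17.4- and 18.3-fold.

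The 3 chains of type IX collagen moved together at the young ages and parted at 16 months. Col9a1 was at 2276, 4537, 3398 and 69.0 CPM in CH-like cells at 1, 1.5, 3 and 16 months. Col9a2 was at 2883, 5203, 4378 and 1251 CPM, and Col9a3 at 4432, 7745, 6762 and 1584 CPM. Per 100 UMIs of Col2a1 in CH-like cells, Col9a1 gave 7.20, 9.61, 10.6 and 1.85 UMIs, whereas Col9a2 gave 9.12, 11.0, 13.7 and 33.5 and Col9a3 gave 14.0, 16.4, 21.2 and 42.5. The share of Col9a1 relative to Col2a1 was thus lowest at 16 months and that of the other 2 chains highest. Over the other mesenchymal cells the 3 genes were 57.4- to 76.9-fold higher at 1 month, 14.7- to 18.7-fold at 1.5 months and 44.0- to 50.8-fold at 3 months. At 16 months the folds were 91.8 (63.7 to 135) for Col9a1, 373 (321 to 436) for Col9a2 and 1271 (999 to 1642) for Col9a3, against levels of 0.751 to 3.35 CPM in the other mesenchymal cells.

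Col10a1 was at 1193 CPM (1166 to 1220) in CH-like cells at 1 month, 3655 CPM (3633 to 3677) at 1.5 months, 1765 CPM (1735 to 1795) at 3 months and 370 CPM (341 to 401) at 16 months. The other mesenchymal cells held 8.07, 226, 29.2 and 0.0733 CPM. These gave folds of 148 (126 to 174), 16.1 (15.7 to 16.6), 60.5 (54.1 to 67.9) and 5050 (1962 to 18596), the last of them resting on very few UMIs outside CH-like cells. With the highest doublet scores removed Col10a1 in CH-like cells at 1 month was at 513 CPM. The 1.5 month library stood apart here, since its other mesenchymal cells held more RNA of each of the 8 genes than those of the other 3 libraries.

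**Figure D1:**
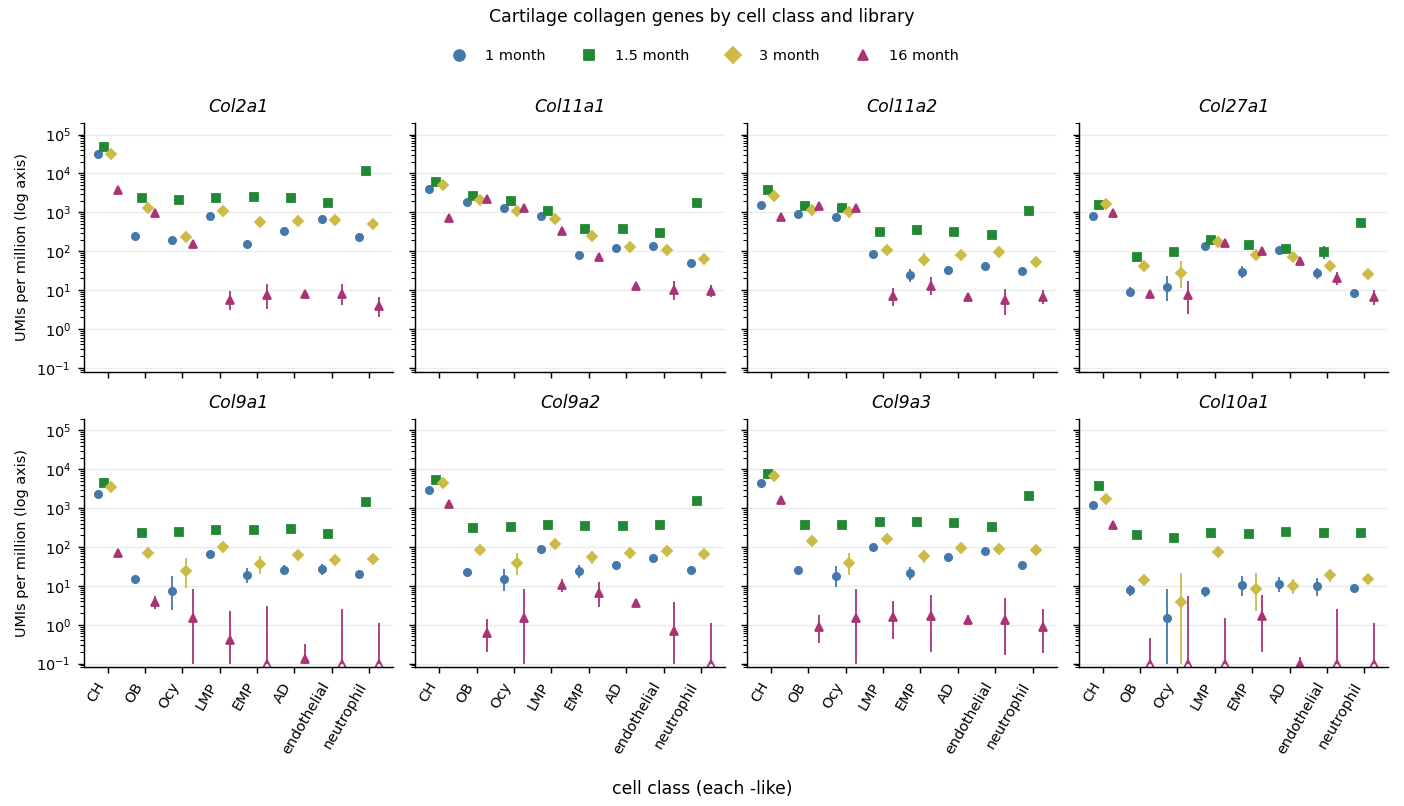
CPM of the 8 genes (log axis) in each class of cells, 1 panel per gene, 1 point per library with its 95% counting interval, colored by age, an open symbol marking 0 UMIs and values below the axis drawn at its foot. CH-like cells lie highest for all 8 genes at 1, 1.5 and 3 months, and OB-like and Ocy-like cells come next for Col11a1 and Col11a2.

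With a call at 2-fold and at least 20 UMIs in both groups together, 8, 8, 8 and 7 of the 8 genes were higher in CH-like than in other mesenchymal cells at 1, 1.5, 3 and 16 months. Of all genes tested 7.5%, 12.2%, 11.5% and 12.7% passed the same call. The exception was Col11a1 at 16 months, at 1.90-fold (1.79 to 2.01). The median fold of the 8 genes was 61.1, 15.4, 37.7 and 56.3, and that of all genes tested 0.897, 0.863, 0.836 and 0.858. The members took 4.86%, 7.99%, 5.77% and 0.946% of all UMIs of CH-like cells.

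Shares of cells with a UMI were compared after thinning each cell to 3000 UMIs, which kept 871 of 895 CH-like cells at 3 months, 113 of 117 at 16 months and every one at the other ages. Col2a1 was seen in 96.8%, 100%, 98.7% and 93.8% of CH-like cells. Among neutrophil-like cells, which should lack it, it was seen in 39.0%, 97.0%, 47.8% and 1.38%, with median depths of 11670, 9646, 6118 and 7256 UMIs. Only 33 neutrophil-like cells were found at 1.5 months. Col2a1 RNA was thus widespread in cells that should lack it in the 3 younger libraries, and scarce in them at 16 months. All 3 type IX genes were seen together in 88.6%, 98.4%, 91.5% and 15.9% of CH-like cells, and Col9a1 alone was seen in 92.6%, 99.1%, 93.2% and 16.8%. Without thinning the 16 month share of Col9a1 was 35.9%. All 8 genes were seen in the same cell in 6.43%, 54.7%, 20.7% and 0.885% of CH-like cells. The gene seen in the fewest cells was Col10a1 in the 3 younger libraries. At 16 months Col9a1 (16.8%) was seen in about as few cells as Col10a1 (17.7%).

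Col10a1 RNA was concentrated in few CH-like cells. It was seen in 50 of 498, 1177 of 2005, 204 of 871 and 20 of 113 thinned CH-like cells (10.0%, 58.7%, 23.4% and 17.7%), against 2.22%, 42.4%, 3.96% and 0% of neutrophil-like cells. Without thinning the shares in CH-like cells were 17.3%, 92.2%, 30.7% and 21.4%. Most positive cells at 1.5 months thus held an amount also seen in neutrophil-like cells, and the cells with at least 10 UMIs of 3000 were 28 (5.62%), 292 (14.6%), 101 (11.6%) and 5 (4.42%). Neutrophil-like cells with 10 or more UMIs numbered 0 in each library. At 1.5 months the 201 CH-like cells with the most Col10a1 held 83.3% of its UMIs, at 3 months the top 88 held 90.02% and at 16 months the top 12 held 93.8%. The same number of cells ranked by Col2a1 held 16.3%, 20.3% and 32.8% of the Col2a1 UMIs. The highest cell held 266, 232, 161 and 39 UMIs of Col10a1 at 1, 1.5, 3 and 16 months. Nearly all cells with Col10a1 also had Col2a1, at 49 of 50, 1177 of 1177, 204 of 204 and 19 of 20. The share of all thinned CH-like cells with Col2a1, given above, was about the same, so this did not set the cells with Col10a1 apart.

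Clustering of the CH-like cells of each library without the collagen genes then gave stages. Cells were called resting/articular-like from markers such as Ucma, Sfrp5 and Prg4, cycling-like from mitosis genes and hypertrophic-like from markers such as Ihh, Pth1r, Panx3 and Ibsp, and Col10a1 took no part. Hypertrophic-like cells numbered 50, 803 and 211 at 1, 1.5 and 3 months and resting/articular-like cells 108, 157 and 52, while cycling-like cells numbered 226 at 1.5 months and 54 at 3 months. In the clustering reported no cluster could be named at 16 months, and 340, 819 and 578 CH-like cells of the younger libraries stayed unnamed. Of the 16 month CH-like cells, 57 of 117 were called hypertrophic-like when all libraries were clustered together. Without regression of UMIs and mitochondrial share 63 of 118 were, and at resolution 1.2 it was 18 of 118.

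Type X collagen was far higher in hypertrophic-like than in resting/articular-like cells, while the chains of types II, IX and XI were present in both. Col10a1 was at 8032 against 47.3 CPM at 1 month (170-fold, 131 to 225), at 8340 against 216 CPM at 1.5 months (38.6-fold, 34.3 to 43.5) and at 5456 against 560 CPM at 3 months (9.75-fold, 8.31 to 11.5). The size of these folds depended on the processing. Over the alternatives the fold ran from 7.74 to 612 at 1 month, from 23.1 to 62.6 at 1.5 months and from 1.23 to 567 at 3 months, so no order of the 3 libraries is read from it. The resting/articular-like level at 3 months rested on few cells, since 1 of 41 thinned cells there held a UMI. Cycling-like cells held 306 CPM at 1.5 months, against 216 CPM in resting/articular-like cells, and 9.90 CPM at 3 months, below the 560 CPM of resting/articular-like cells there. Col2a1 in cycling-like cells was at 42876 and 20740 CPM. The 3 month group was mixed, with no Col2a1 UMI in 8 of 54 thinned cells, against 0 of 226 at 1.5 months. The median thinned cell held 125 UMIs at 1.5 months and 56 at 3 months.

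At 1 month Col10a1 was the 1 member called higher, where 4.87% of all genes tested were higher and 8.93% lower. The other 7 genes lay between 1.01-fold (Col27a1) and 1.59-fold (Col11a2), and Col2a1 was at 35373 against 27326 CPM. At 1.5 months 3 genes were called higher, against 9.35% of all genes higher and 13% lower. Besides Col10a1 they were Col11a2, at 4427 against 1577 CPM (2.81-fold, 2.69 to 2.94), and Col27a1, at 1698 against 663 CPM (2.56-fold, 2.39 to 2.75). The remaining 5 were 1.74- to 1.99-fold higher. At 3 months all 8 were called higher, against 12.1% of all genes higher and 15% lower, with Col9a1 at 6.16-fold, Col2a1 at 4.11-fold and Col27a1, the smallest, at 2.45-fold. No member was called lower at these ages. The counts depended on the processing, with 1 to 5 members called higher at 1 month and 1 to 8 at 1.5 months over the alternatives. At 3 months 1 member was called at resolution 1.2, and 0 with the highest doublet scores removed, where Col10a1 was at 4686 against 3823 CPM (1.23-fold).

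The group compared with differed between libraries. At 3 months the resting/articular-like cells were 1 cluster of 52 cells with 4039 CPM of Prg4, a gene of articular cartilage and synovium, a median of 4330 UMIs and Col2a1 at 7987 CPM. At 1.5 months a cluster of 22 cells with 12565 CPM of Prg4 held Col2a1 at 17789 CPM, Col11a2 at 921 CPM and Col9a1 at 938 CPM, below the 32319.6 CPM, 1641 CPM and 2574 CPM of the larger resting/articular-like cluster, where Prg4 was at 58.0 CPM. Col11a1 went the other way, at 4535 CPM in the cluster with high Prg4 and 3590 CPM in the larger one. The clusters with high Prg4 were thus low in most members in both libraries.

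**Figure D2:**
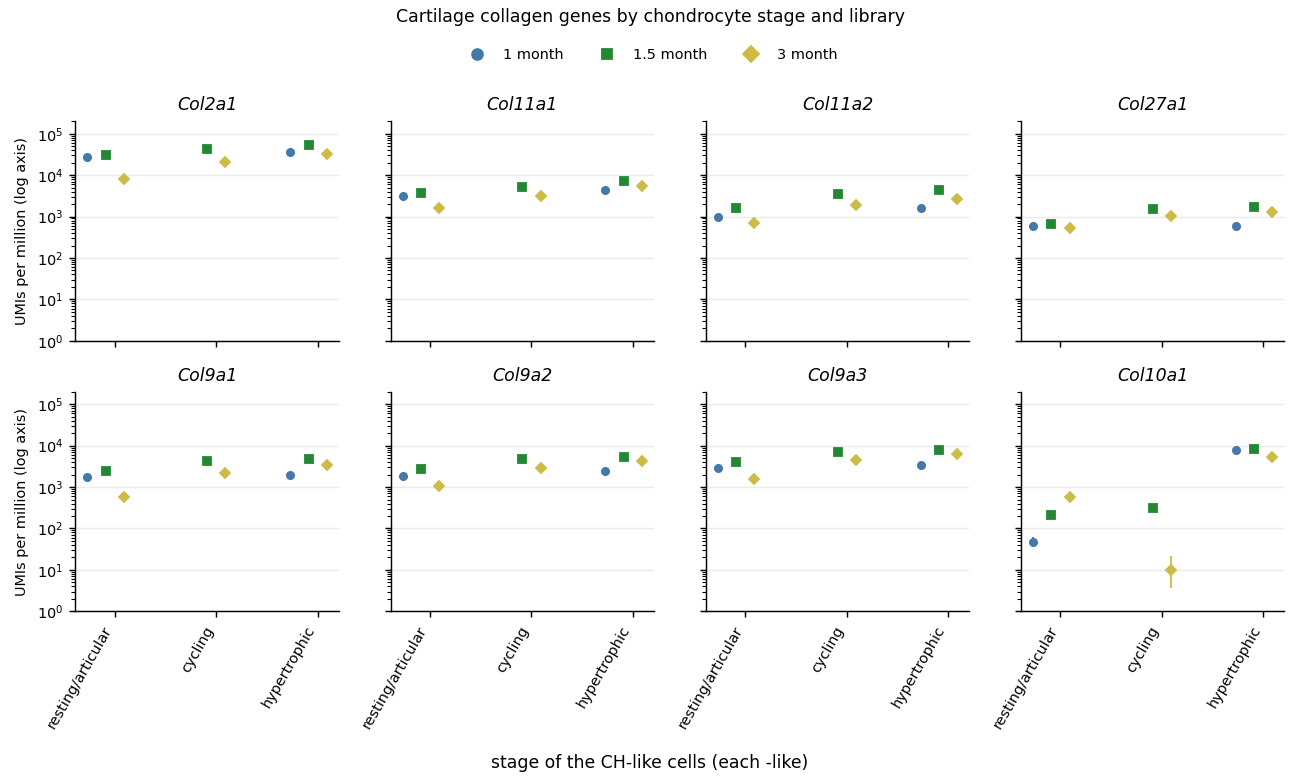
CPM of the 8 genes (log axis) in resting/articular-like, cycling-like and hypertrophic-like cells at 1, 1.5 and 3 months, 1 panel per gene, with 95% counting intervals. In the clustering shown Col10a1 is 170-, 38.6- and 9.75-fold higher in hypertrophic-like than in resting/articular-like cells, folds that run from 7.74 to 612, 23.1 to 62.6 and 1.23 to 567 over other settings, and the other 7 genes differ less, with low values in the 3 month resting/articular-like cells.

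Hypertrophic-like cells were themselves not uniform. At 1.5 months 3 clusters held Col10a1 at 905, 8507 and 19822 CPM. The first (374 cells) had the most Col27a1, at 2265 CPM, and Mmp13, a collagenase of terminal hypertrophic cells and osteoblasts, at 101 CPM. The second (225 cells) had Mmp13 at 1198 CPM, Ibsp at 4318 CPM and the least Col27a1, at 994 CPM. The third (204 cells) had the most Col10a1 together with Ihh at 708 CPM, the hedgehog ligand of prehypertrophic cells, and Col2a1 at 59099 CPM. Col2a1 was thus not lower where Col10a1 was highest. In thinned hypertrophic-like cells 24 of 50, 221 of 803 and 62 of 204 held no Col10a1 UMI, while 16, 187 and 45 held 30 or more.

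Low Col10a1 could go with high levels of other members. At 3 months an unnamed cluster of 169 cells, led by osteocalcin (Bglap) genes, held 27.0 CPM of Col10a1 with 10029 CPM of Col9a3, 3705 CPM of Col11a2 and 2651 CPM of Col27a1, each the highest of the 6 clusters of that library. Another unnamed cluster of 227 cells held 1535 CPM of Col10a1.

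At 16 months 61 and 56 CH-like cells fell into clusters 0 and 1, which are given by number. Col10a1 was at 2.18 CPM in cluster 0 and 850 CPM in cluster 1, 391-fold higher (108 to 3234), so the 16 month level of Col10a1 in CH-like cells rested on cluster 1. Besides Col10a1, cluster 1 was led by genes of other cell types such as Hp and Cxcl12, markers of the adipocyte lineage, and the hemoglobin gene Hba-a1. It held 5241 CPM of adipocyte-lineage markers against 1060 CPM in cluster 0, 1278 against 178 CPM of erythroid markers and 15253 against 27542 CPM of chondrocyte markers, and the part of these in the difference was not tested. Col9a1 was 3.53-fold lower in cluster 1 (2.16 to 6.04), Col11a1 2.26-fold lower and Col9a3 2.02-fold lower. So 1 member was called higher and 3 lower, where 12.8% of all genes tested were higher and 4.08% lower.

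**Figure D3:**
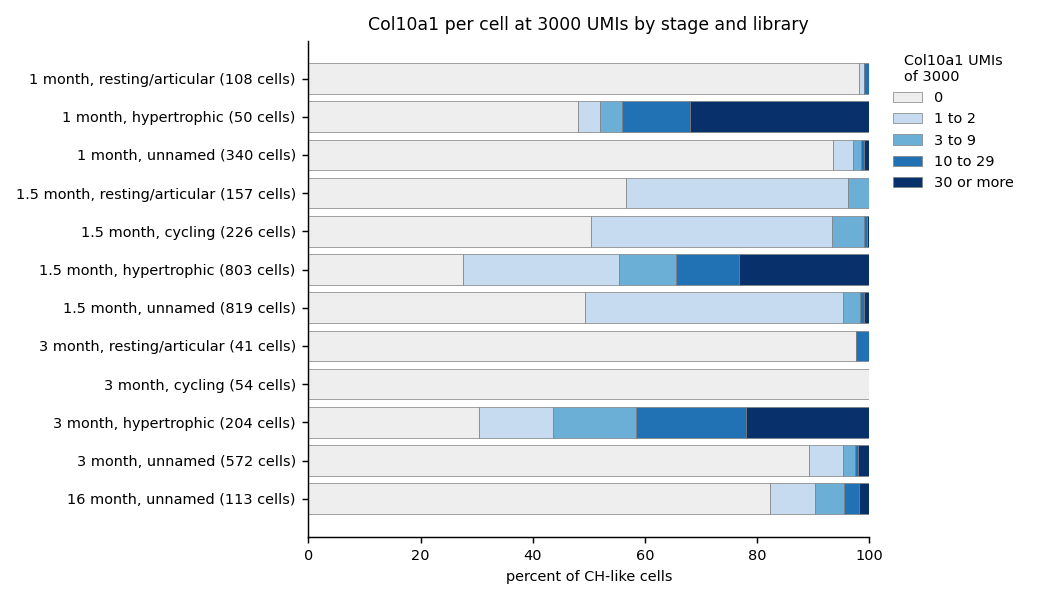
Share of CH-like cells (x axis, percent) by their number of Col10a1 UMIs after thinning to 3000 UMIs, 1 stacked bar per stage and library with its number of cells. Cells with 30 or more UMIs make up 32.0%, 23.3% and 22.1% of hypertrophic-like cells at 1, 1.5 and 3 months, and 0% of resting/articular-like cells.

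Set side by side by age, the CH-like cells of the 1.5 month library held 1.49- to 3.06-fold the 1 month level of each member. Col10a1, at 3.06-fold (2.99 to 3.14), and Col11a2, at 2.49-fold (2.44 to 2.54), passed 2-fold, where 7.65% of all genes tested were higher and 8.95% lower. The stages differed, with 50 of 498 CH-like cells hypertrophic-like at 1 month and 803 of 2005 at 1.5 months. Within hypertrophic-like cells Col10a1 was at 8032 and 8340 CPM, and Col11a2 at 1598 and 4427 CPM. The part of the stages in the folds between ages was not tested. At 16 months 6 members were called lower than at 1 month. Col9a1 was 33.0-fold lower (27.4 to 40.1), Col2a1 8.48-fold (8.26 to 8.70), Col11a1 5.41-fold (5.10 to 5.74), Col10a1 3.22-fold (2.97 to 3.51), Col9a3 2.80-fold (2.69 to 2.91) and Col9a2 2.30-fold (2.20 to 2.41). Col11a2 was 1.99-fold lower (1.88 to 2.11) and Col27a1 1.205-fold higher (1.14 to 1.28), and neither was called. Of all genes tested 19.9% were higher and 21.5% lower at 16 months. Both comparisons use the same 1 month library. Other genes of chondrocytes also differed between these libraries. Of 8 chondrocyte markers listed under the same symbol in both tables, 4 were called lower at 16 months, namely Matn1 (24.1-fold), Matn3 (8.09-fold), Ucma (4.09-fold) and Epyc (3.28-fold), and Chad was 3.66-fold higher, while Acan, Comp and Hapln1 were not called. The tables also differ in their gene lists, with 31054 genes at 16 months and 27999 at the other ages, so folds across ages carry any difference in how the tables were made. The 26600 genes listed in all 4 held 98.0% to 98.7% of the UMIs of CH-like cells in each library. Without cluster 1 the 16 month levels were 2.18 CPM for Col10a1, 100.1 CPM for Col9a1 and 4744 CPM for Col2a1.

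**Figure D4:**
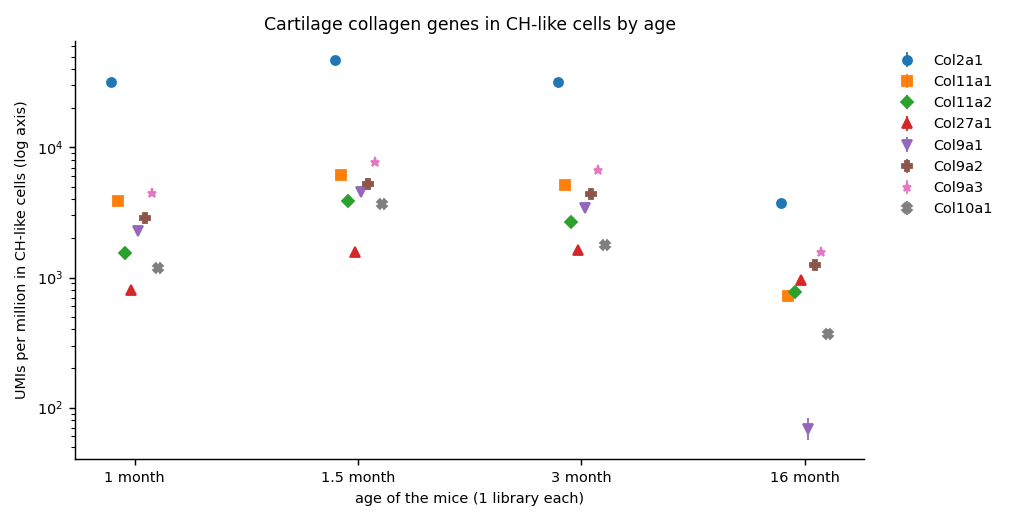
CPM of each gene in CH-like cells (log axis) at each age, 1 library per age, with 95% counting intervals. 7 of the 8 genes are highest at 1.5 months and Col27a1 at 3 months, Col9a1 drops to 69.0 at 16 months, and Col27a1 stays at 961.

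Outside cartilage, both chains of type XI collagen were high in bone-forming cells. In OB-like cells (308, 361, 300 and 581 cells) Col11a1 was at 1876, 2620, 2107 and 2152 CPM and Col11a2 at 881, 1427, 1147 and 1487 CPM at 1, 1.5, 3 and 16 months. At 16 months both levels lay above those of CH-like cells (717 and 779 CPM), and at the younger ages below them. As a mean over cells, in which 382 shallow OB-like cells weigh as much as deep ones, the 16 month levels were 1021 CPM for Col11a1 and 765 CPM for Col11a2, against 621 and 676 CPM in CH-like cells. Ocy-like cells held 1306, 1960, 1115 and 1280 CPM of Col11a1 and 756, 1264, 1029 and 1327 CPM of Col11a2. In thinned OB-like cells Col11a1 was seen in 96.1%, 98.9%, 90.1% and 89.8% and Col11a2 in 84.4%, 96.7%, 84.6% and 91.0%. Against the other mesenchymal cells without CH-like cells, Col11a1 was 3.44-, 3.33-, 5.11- and 34.3-fold higher in OB-like cells and Col11a2 8.34-, 3.78-, 9.02- and 39.7-fold. These 2 were the members called higher at 1, 1.5 and 3 months, where 2.41%, 2.58% and 3.06% of all genes tested were called. At 16 months 4 of 7 members tested were called, where 6.39% of all genes were, the others being Col2a1 (22.3-fold) and Col9a1 (17.5-fold, 8.35 to 40.0). The Col9a1 call compared levels near 0, at 3.77 against 0.216 CPM, on 31 and 10 UMIs. Of those 31 UMIs, 24 lay in the cluster of 382 shallow OB-like cells.

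Free RNA from 1 source would keep its genes in 1 ratio in every class, so UMIs were also set against Col2a1. A single source cannot be assumed here. Neutrophil-like cells also held osteoblast markers, at 1109, 26809, 846 and 872 CPM at 1, 1.5, 3 and 16 months. Per 100 UMIs of Col2a1, CH-like cells held 12.3, 12.9, 16.1 and 19.2 UMIs of Col11a1 and OB-like cells 740, 114, 162 and 227. For Col9a2 the CH-like cells held 9.12, 11.0, 13.7 and 33.5 and the OB-like cells 9.22, 13.8, 6.50 and 0.0640. Type XI RNA in OB-like cells therefore stood far above the CH-like ratio in every library, whereas Col9a2 at 1 and 1.5 months stayed close to it. Neutrophil-like cells at 1 month held 21.6 UMIs of Col11a1 and 11.0 of Col9a2 per 100 of Col2a1. The OB-like ratios at 16 months had a high divisor, with Col2a1 at 949 CPM against 42.5 CPM in the other mesenchymal cells without CH-like cells. Which class the RNA came from was not tested.

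**Figure D5:**
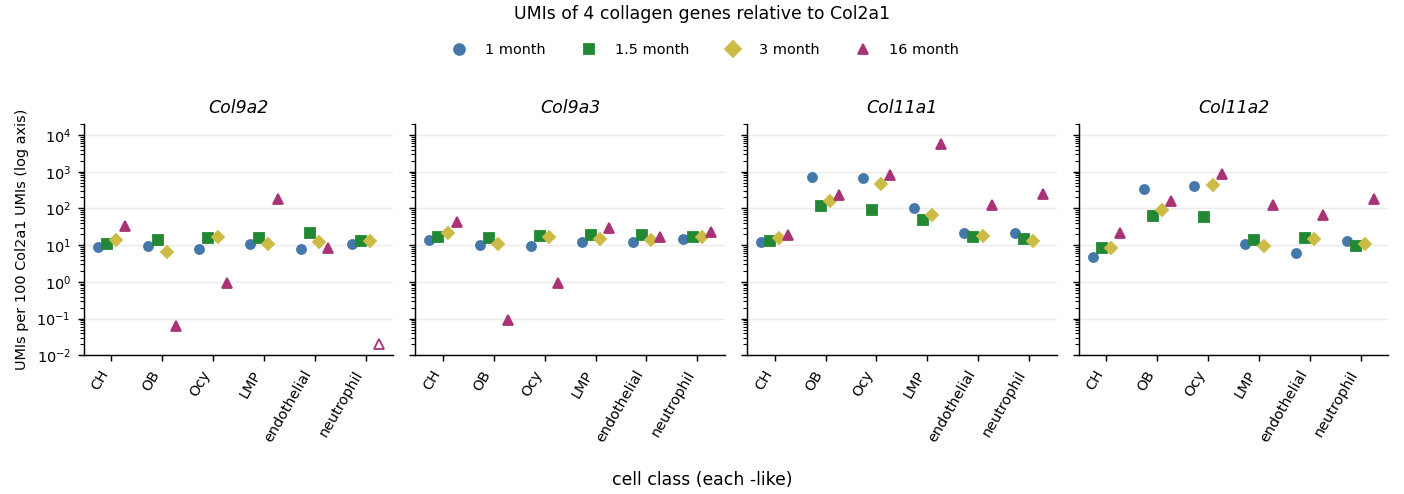
UMIs of 4 collagen genes per 100 UMIs of Col2a1 (log axis) by class of cells and library, 1 point each without an error bar, an open symbol marking 0 UMIs. Col11a1 and Col11a2 in OB-like and Ocy-like cells lie above CH-like cells in every library, and Col9a2 lies below them in OB-like cells at 3 and 16 months.

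OB-like cells of the 16 month library held Col2a1 with little or no RNA of Col9a2, Col9a3 and Col10a1. Col2a1 was at 949 CPM there, against 3.86 CPM in neutrophil-like and 155 CPM in Ocy-like cells, and was seen in 53.0% of 266 thinned cells, of which 25 held 10 or more UMIs. Col9a2 was at 0.608 CPM, Col9a3 at 0.851 CPM and Col10a1 at 0 CPM. The 2 clusters of this class gave Col2a1 at 728 and 1095 CPM with median depths of 929 and 26215 UMIs, and the shallower one was led by neutrophil genes beside osteoblast genes. In both, Matn3 was at 0 CPM and Acan, the core protein of aggrecan, at 5.21 and 1.41 CPM. From 1 to 16 months Col2a1 in OB-like cells was 3.74-fold higher (3.53 to 3.97), the 1 member called, where 16.6% of all genes tested were higher. That call was lost at resolution 0.5 and with a mitochondrial limit of 10%, where the 1 month level was 606 and 685 CPM. Col9a1, Col9a2, Col9a3 and Col10a1 were called lower, where 10.4% of all genes were. Their 1 month levels in OB-like cells, at 15.0, 23.4, 26.2 and 7.61 CPM, were no higher than those of neutrophil-like cells (19.7, 25.8, 34.3 and 9.004 CPM), so these calls compare levels that cells lacking the genes also had. At 1 month Col2a1 in OB-like cells (254 CPM) was near the level of neutrophil-like cells (236 CPM), at 3 months it was at 1304 CPM against 495 CPM, and at 1.5 months at 2295 CPM against 1715 CPM in endothelial-like cells. Neutrophil-like cells at 1.5 months, 33 in all, were at 11858 CPM, a level set by few cells. The median thinned cell held 7 Col2a1 UMIs of 3000, and 4 cells held 51.5% of them. These cells also held 26809 CPM of osteoblast markers. Over the alternatives the Col2a1 level ran up to 63.8% of that in CH-like cells. The lowest value, 3.63%, came from endothelial-like cells used in place of the neutrophil-like cells.

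Progenitors and marrow stroma differed from osteoblasts in which chains they held. LMP-like cells, which include clusters led by tendon genes, held Col11a1 at 798, 1104, 694 and 326 CPM but Col11a2 at 84.7, 315, 105 and 6.87 CPM. Col27a1 was at 140, 199, 176 and 162 CPM in LMP-like cells and at 8.94, 71.9, 41.0 and 7.78 CPM in OB-like cells, higher in LMP-like cells in all 4 libraries. AD-like cells at 16 months held 54.5 CPM of Col27a1 and 13.1 CPM of Col11a1. In the named classes other than CH-like, Col10a1 was at 1.50 to 14.0 CPM at 1 month, at 173 to 290.5 CPM at 1.5 months, at 0 to 96.4 CPM at 3 months and at 0 to 1.63 CPM at 16 months.

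Genes that make and drive these collagens were read from 7 lists of 74 genes. Among 12 transcription factors Sox9 was 6.92-, 6.85-, 10.6- and 12.8-fold higher in CH-like than in other mesenchymal cells, and Sox5, Sox6, Foxa2, Foxa3 and Trps1 were also called higher in all 4 libraries. In hypertrophic-like against resting/articular-like cells Sox9 was at 1.10-, 0.921- and 1.00-fold, whereas Mef2c was 3.55-, 8.70- and 14.0-fold higher at 1, 1.5 and 3 months. Runx2 was 2.59-fold higher at both 1.5 and 3 months. Mef2c and Sp7 are among the markers that named the stage, so their values are descriptions of it. Of 11 factors tested, 6, 7, 7 and 8 were higher in CH-like cells and 2, 0, 0 and 0 lower. For these counts and those of the lists below, 7.5%, 12.2%, 11.5% and 12.7% of all genes tested were higher in CH-like cells and 16.2%, 22.4%, 22.3% and 24% lower at 1, 1.5, 3 and 16 months.

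Of 17 folding and modification genes, 5, 6, 5 and 5 were higher and 1, 1, 1 and 3 lower in CH-like cells. Plod2, a lysyl hydroxylase, was 2.97-, 2.66-, 2.34- and 3.18-fold higher, and Colgalt2, which adds galactose to hydroxylysine, 28.0-, 11.1-, 24.8- and 252-fold. P3h4 was also higher in all 4 libraries. In the list of propeptide cleavage and crosslinking, 5, 3, 3 and 2 of 12, 11, 11 and 11 genes tested were higher and 6, 6, 6 and 7 lower. Pcolce2, an enhancer of procollagen cleavage, was 9.01-, 11.9-, 41.8- and 858-fold higher while its relative Pcolce was called lower in all 4. Loxl4, a lysyl oxidase, was higher in CH-like cells and 9.58-, 9.77- and 5.67-fold higher in hypertrophic-like than in resting/articular-like cells.

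Breakdown genes and collagens of bone and stroma ran the other way. Of 6 breakdown genes, 5, 6, 6 and 6 were lower in CH-like cells, with Mmp13 2.93-, 7.44-, 11.6- and 32.9-fold lower. Mmp13 was 23.6-, 3.16- and 3.06-fold higher in hypertrophic-like than in resting/articular-like cells. It is among the markers that named the hypertrophic-like stage, so these folds describe that stage. Of 12 collagen genes of bone and stroma 8 were lower in each library, with Col1a1 12.0-, 24.2-, 51.0- and 62.6-fold lower. Col1a1 is among the markers that named the OB-like cells, which form part of the other mesenchymal cells. Col6a3, a chain of type VI collagen, was called higher at 1, 3 and 16 months. For secretion of large cargo, Creb3l2 was called higher at 1, 1.5 and 3 months and Creb3l1 lower in all 4 libraries. Of 7, 6, 6 and 7 receptors tested, 0, 0, 0 and 1 were higher and 4, 2, 2 and 5 lower, the 1 higher being Itga10, a subunit of a collagen receptor of chondrocytes, at 3.66-fold.

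Over 50 sums of class and library, the genes most like each member were described by Pearson's r of log2(CPM + 1) among 7067 genes. The sums share libraries, depth and free RNA, and several of the genes are naming markers. For the 3 type IX genes Matn3, a matrilin of cartilage, came first at 0.964, 0.975 and 0.982, and for Col2a1 the first were 3110079O15Rik (0.919), Matn3 (0.915) and Epyc (0.887). For Col10a1 they were Matn3 (0.924), Hapln1 (0.918) and Fxyd2 (0.914). The type XI genes had other neighbours, namely Cgref1 (0.912), Smpd3 (0.880) and Pla2g5 (0.876) for Col11a1 and Slc13a5 (0.925), Pla2g5 (0.880) and Smpd3 (0.873) for Col11a2. Those of Col27a1 were Comp (0.882), Chadl (0.873) and Cpa6 (0.871). Among the members themselves r was 0.985 for Col9a2 with Col9a3, 0.923 for Col11a1 with Col11a2 and 0.491 for Col11a2 with Col27a1.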

How the data were processed

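Endosteal bone marrow cells of Col2:Td mice were profiled by 10x Genomics 3' single-cell RNA sequencing, with 1 library of pooled mice at each of 4 ages. The authors deposited raw UMI counts per gene and barcode, made per the submitters' processing notes with Cell Ranger 3.0.2 and the mouse build mm10 and analysed with Seurat 2. The deposited count tables hold between 32672631 and 108227184 UMIs per library, and intervals from them cover counting error only. The 16 month table lists 31054 genes and the others 27999.

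Cells with 200 to 6000 genes and under 5% mitochondrial UMIs were kept. In Seurat 5.3.0 the 1 and 1.5 month libraries were integrated by canonical correlation and the others clustered alone, with 2000 variable genes, 30 components, UMIs and mitochondrial share regressed out and resolution 0.8. Mesenchymal and then CH-like cells were clustered again, the latter per library with 20 components. Clusters were named from at least 3 markers, the collagens being left out of clustering and naming, and those led by markers of another class stayed unnamed. No doublet caller was used for the values reported. UMIs were summed per class and library. A gene was called at 2-fold with at least 20 UMIs in both groups together. Where a group held no UMI, 3 counts stood for the floor. The 2-fold call was run on simulated Poisson counts from the 3 month library, which hold no variation between cells, clusters or libraries. All 8 members were named, with the 3 genes most like each over sums of at least 20 cells among genes reaching 50 CPM, and 7 gene lists. Members and lists were chosen with earlier results of these data known. Python 3.11.15, numpy 2.4.6, scipy 1.17.1 and R 4.3.3 were used.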

Additional observations from a re-analysis of the deposited data

Results flagged for a closer look

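Collagen RNA also lay in barcodes that the comparisons as reported did not use. The barcodes left out by the limits on genes and mitochondrial UMIs held the 8 genes at a summed level of 8141 CPM at 1 month, 28697 CPM at 1.5 months, 13512 CPM at 3 months and 846 CPM at 16 months. They drew attention because these cells entered no comparison as reported and each level lay above what a count of 0 allows. The alternative with a mitochondrial limit of 10% took in part of them, keeping 8180 cells at 16 months against 6143. The order of the 4 libraries was the order of the summed level in CH-like cells.

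Col10a1 in CH-like cells moved in opposite directions in both age comparisons against the 1 month library. The level at 16 months was 0.31 times that at 1 month, whereas the level at 1.5 months was 3.06 times as high. The 16 month level rested on 1 cluster of CH-like cells, led also by genes of other cell types, without which it was 2.18 CPM in place of 370 CPM. Hypertrophic-like cells, at 50 of 498 CH-like cells at 1 month and 803 of 2005 at 1.5 months, held Col10a1 at 8032 and 8340 CPM. Each age was a single library and both ratios share the 1 month library, and the difference was not tested.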

How the results depend on the processing

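No paired analysis was possible because every age was 1 library and all libraries carried the same replicate number. Each count below is of members past 2-fold, and the comparisons of OB-like cells and of the 16 month clusters were added after seeing the data. CH-like cells exceeded other mesenchymal cells for 7 or 8 of the 8 genes under every alternative at every age, and no alternative gave a member lower in hypertrophic-like cells or higher at 16 than at 1 month in CH-like cells.

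Members higher at 1.5 than at 1 month in CH-like cells numbered 2, and 5 at resolution 0.5, 4 with the highest doublet scores removed, 6 with a mitochondrial limit of 10%, 7 at 1.5-fold, 1 at 3-fold and 4 in cells thinned before summing. For hypertrophic-like over resting/articular-like cells at 1 month the count was 1, and 5 both with the highest doublet scores removed and with stages clustered jointly, and 2 at 1.5-fold. At 1.5 months it was 3, and 7 at resolution 1.2, with doublet scores removed, with joint stages and after thinning, 6 with the collagen genes kept and as a mean over cells, 8 at 1.5-fold, and 1 at 3-fold and with 20 components. At 3 months it was 8, and 1 at resolution 1.2 and 0 with doublet scores removed. The fold of Col10a1 itself ran from 7.74 to 612, from 23.1 to 62.6 and from 1.23 to 567 at 1, 1.5 and 3 months. Members higher in OB-like cells at 16 than at 1 month numbered 1, and 0 at resolution 0.5 and with the limit of 10%, and 2 at 1.5-fold and as a mean over cells, while those lower numbered 4, and 2 after thinning. OB-like cells exceeded other cells for 2 members at 3 months, and for 4 with doublet scores removed or the limit of 10%. In cluster 1 against cluster 0 at 16 months 3 members were lower, and 6 at 1.5-fold and 1 at 3-fold. The cause was not tested. Counts of Col10a1 outside CH-like cells at 16 months were near 0, at 4 UMIs in 5122 other mesenchymal cells. Some stages held few cells. Hypertrophic-like cells at 16 months numbered 0 as reported, 18 at resolution 1.2, 57 with joint stages and 63 without regression.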
